A study of Mus musculus with 564 samples.

Results

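Eicosanoids are lipid mediators made from arachidonic acid, and 7 genes of their synthesis were followed here together with Acod1, the gene of the enzyme that makes itaconate from cis-aconitate. The 8 genes were Ptgs1, Ptgs2, Ptges, Pla2g4a, Alox5, Alox5ap, Ltc4s and Acod1. Their members were the rows of the deposited H3K27ac table whose centre lay within 25 kb of a RefSeq transcription start of one of the genes in mouse build mm10, which gave 53 of 59190 rows. Ptges had 10 such rows, Acod1 had 9, Pla2g4a had 8, Ptgs1 and Alox5ap had 7 each, Ltc4s had 6, Alox5 had 4 and Ptgs2 had 2. By RefSeq, 32 of the 53 centres lay in an intron, 8 in an exon and 13 between genes. Distance alone tied a row to a gene, so a row need not act on that gene.

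The libraries were H3K27ac ChIP-seq of wild-type bone marrow-derived macrophages (BMDM) from male C57/BL6 mice of 6 to 8 weeks, differentiated in culture from bone marrow. H3K27ac, acetylation of lysine 27 of histone H3, marks active promoters and enhancers, and its level is neither the amount of a transcript nor that of an enzyme. Cells first received, for 1 h, either the vehicle DMSO or a clinical kinase inhibitor (CKI), 58 of which were used, and were then left untreated (UT) or given LPS, which acts through TLR4, or IL-4, each at 10 ng/mL for 30 min, 1 h, 2 h or 4 h. DMSO had 9 groups of 2 libraries, 18 in all, and the CKIs had 546 libraries, mostly 1 per CKI and time. All groups shared the wild-type genotype and the 1 h pre-treatment, and CKI doses differed from one CKI to the next.

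Eicosanoid synthesis starts when cytosolic phospholipase A2, the product of Pla2g4a, frees arachidonic acid from membranes. The cyclooxygenases COX-1 (Ptgs1, generally expressed at steady state) and COX-2 (Ptgs2, inducible) turn it into prostaglandin H2, which microsomal prostaglandin E synthase (Ptges) converts to prostaglandin E2. In the other branch, 5-lipoxygenase (Alox5) with its activating protein FLAP (Alox5ap) makes leukotriene A4, and leukotriene C4 synthase (Ltc4s) adds glutathione to it. Activated macrophages are known for making prostaglandin E2 and, through Acod1, the antimicrobial and immunomodulatory metabolite itaconate.

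The sequences before 4 starts are shown as examples of both directions: H3K27ac rose after LPS at the rows around the starts of Ptgs2 and Acod1 and fell at those around the starts of Ptgs1 and Alox5. Each is the 250 bases before a RefSeq start of build GRCm38.p6, 5′ to 3′ on the strand of the gene. The windows are chr1:150099781-150100030 on the plus strand for Ptgs2, chr14:103046762-103047011 on the plus strand for Acod1, chr2:36230176-36230425 on the plus strand for Ptgs1 and chr6:116461179-116461428 on the minus strand for Alox5. Capitals mark matches to the motif letters given after the sequences.
Ptgs2: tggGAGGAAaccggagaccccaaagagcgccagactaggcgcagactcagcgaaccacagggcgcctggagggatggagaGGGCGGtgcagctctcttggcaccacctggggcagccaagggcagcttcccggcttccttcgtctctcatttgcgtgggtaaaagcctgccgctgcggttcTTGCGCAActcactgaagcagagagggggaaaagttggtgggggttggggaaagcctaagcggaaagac
Acod1: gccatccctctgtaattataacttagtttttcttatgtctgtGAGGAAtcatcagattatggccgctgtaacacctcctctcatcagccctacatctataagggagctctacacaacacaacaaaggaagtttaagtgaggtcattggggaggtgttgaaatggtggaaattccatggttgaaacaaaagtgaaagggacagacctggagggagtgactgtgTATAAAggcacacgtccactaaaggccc
Ptgs1: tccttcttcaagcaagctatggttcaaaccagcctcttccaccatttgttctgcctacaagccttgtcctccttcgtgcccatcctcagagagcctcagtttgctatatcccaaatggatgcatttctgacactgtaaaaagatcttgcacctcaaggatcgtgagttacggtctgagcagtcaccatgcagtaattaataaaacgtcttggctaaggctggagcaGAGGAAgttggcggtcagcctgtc
Alox5: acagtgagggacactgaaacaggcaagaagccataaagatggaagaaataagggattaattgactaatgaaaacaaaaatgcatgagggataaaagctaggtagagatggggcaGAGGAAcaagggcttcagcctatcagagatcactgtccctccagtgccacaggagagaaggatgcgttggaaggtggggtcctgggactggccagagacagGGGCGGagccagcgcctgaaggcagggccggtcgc
Both strands were searched for 10 motifs. AP-1 was spelled TGANTCA, the cyclic AMP response element (CRE) TGACGTCA, and the short form of the CRE, which lies within its letters, was spelled TGACGT. NF-kB was spelled GGGNNTTCC, C/EBP was spelled TTGCNNAA and the interferon-stimulated response element was spelled GAAANNGAA. The letters used for PU.1 were GAGGAA, those used for the E-box were CACGTG, those used for SP1 were GGGCGG and those used for the TATA box were TATAAA. Positions count back from the start, and the position of a match is that of its first base in the strand shown. The Ptgs2 window held PU.1 letters at -247, SP1 letters at -170 and C/EBP letters at -69, and the Acod1 window held PU.1 letters at -208 and TATA letters at -28. The Ptgs1 window held only PU.1 letters, at -24, and the Alox5 window held PU.1 letters at -136 and SP1 letters at -35. Over the 32851 RefSeq promoter windows of the same length, 23.3% held the PU.1 letters, 32.7% the SP1 letters, 12.4% the TATA letters and 9.56% the C/EBP letters. The other 6 motifs matched none of the 4 windows, and each was in 1.55% to 7.13% of all windows. RefSeq windows were matched for 7 of the 8 genes, all but Alox5ap.

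Values are read counts that the authors normalised and rounded to whole numbers. The depth estimated from the step between low values ranged from 2346040 to 5408910 reads in rows for the 16 stimulated DMSO libraries and from 346119 to 6581860 for 534 CKI libraries. Both DMSO UT libraries gave no estimate. The spread between high and low rows of a library, taken as a ratio, had a median of 75.1 in DMSO and 17.6 in CKI libraries, so the range of values within a library was narrower in CKI than in DMSO libraries. Between the 2 libraries of a DMSO group, r over all rows was 0.959 to 0.982 on the log2 scale, and the standard deviation (SD) between paired libraries at the 53 rows had a median of 0.248 in 9 DMSO pairs and 0.473 in 36 CKI pairs. Nothing in the labels says that these libraries came from separate mice, so p-values measure only the spread between libraries. The 6 macrophage markers Csf1r, Adgre1, Itgam, Spi1, Cd68 and Lyz2 had rows at their starts with UT means of 636 to 2082, and the 8 markers of other cell types had no row at a start. Over 31280 rows that responded in DMSO, 545 of 546 CKI libraries were most like DMSO libraries of their own labelled stimulus. The exception was 1 of the 2 BMS387032 libraries of IL-4 at 1 h.

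LPS separated the genes into 2 groups. Near Ptgs2, Ptges, Pla2g4a and Acod1 H3K27ac rose, and near Ptgs1, Alox5, Alox5ap and Ltc4s it fell. A row was called in a time course when the test over all 4 times in limma gave a Benjamini-Hochberg adjusted p under 0.01 and at least 1 time differed from UT by more than 1 on the scale of log2(value + 5), which understates the change of low rows. Of the 53 rows, 50 passed the filter on low values after LPS, a mean of at least 10 over the libraries compared. After LPS 25 of these rose, against 29% of the 50697 rows tested in the whole table, and 19 fell, against 24.6% of all rows. The rows that rose comprised both of Ptgs2, 9 of 10 of Ptges, 7 of 8 of Pla2g4a and 7 of 9 of Acod1, and no row of these 4 genes fell except 1 of Pla2g4a. Some of these Ptges rows (UT means of 4 to 9.5) and the Ptgs2 row 8.6 kb downstream (UT mean 1.5) passed the filter only through LPS libraries. At such rows only a rise could be called. Those that fell comprised all 4 of Alox5, 6 of 7 of Alox5ap, 4 of 6 of Ltc4s and the 4 Ptgs1 rows that passed the filter. The other 3 Ptgs1 rows had values of 0 to 10 in every LPS library and 9 to 33 in UT.

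IL-4 moved fewer of them. Of 47 rows that passed the filter, 8 rose, against 13.6% of the 47018 rows tested, and 7 fell, against 11.1%. Of the rows that rose, 6 were near Ptgs1 and 2 near Acod1. Those that fell were 2 of Alox5, 2 of Alox5ap and 3 of Acod1. No row of Ptgs2, Ptges, Pla2g4a or Ltc4s was called after IL-4, and 5 of the 10 Ptges rows were too low to be tested there.

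**Figure D1:**
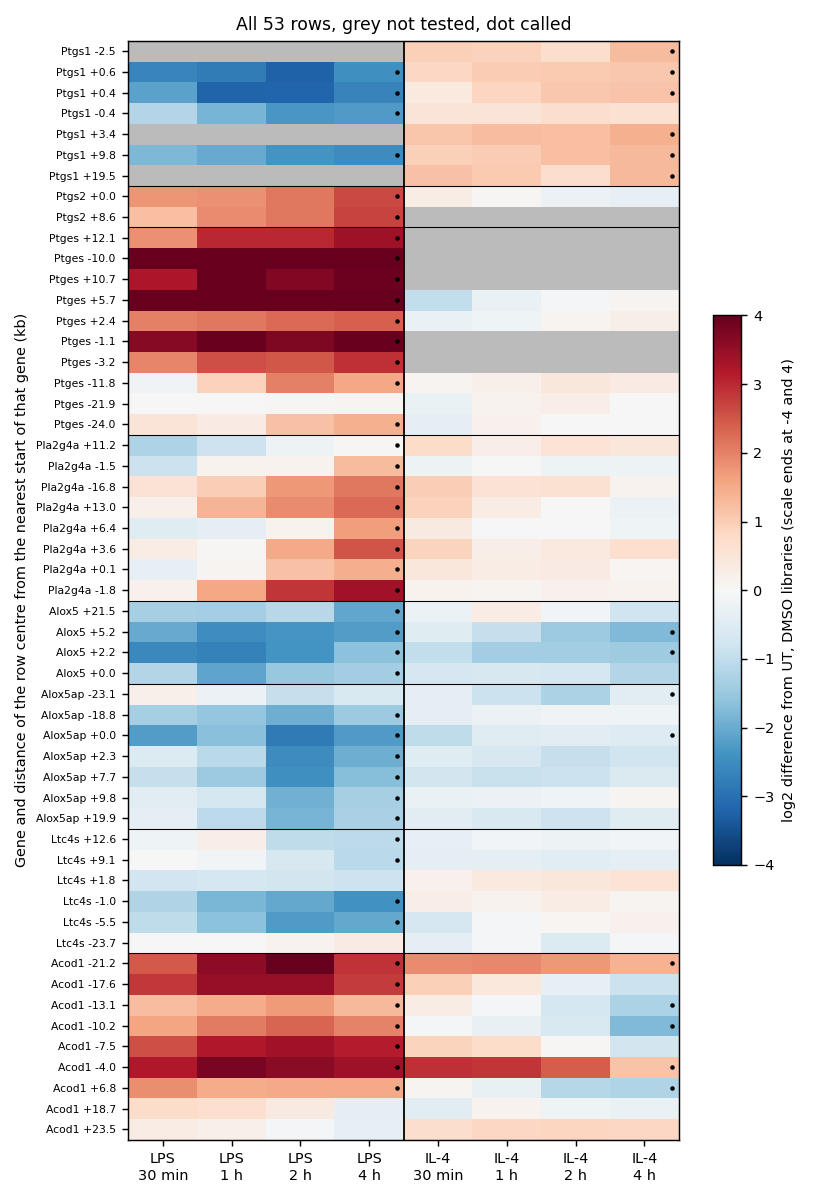
Log2 difference from UT of the 53 rows in DMSO libraries, with LPS times on the left and IL-4 times on the right. Each line is a row of the table labelled by its gene and by the distance of its centre from the nearest start of that gene in kb, red is higher and blue lower than UT, grey was not tested, and a dot in the 4 h column marks a row called in that time course. After LPS the Ptges block is the most red, up to 6.13, and Ptgs1 changes from blue after LPS to red after IL-4.

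The heat map of all rows shows the genes as blocks. For most genes the rows of a block shared 1 direction after LPS, and the Acod1 block was mixed after IL-4.

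Ptgs1, the gene of COX-1, fell after LPS and rose after IL-4. The row with the highest mean that covers a Ptgs1 start, at chr2:36215839-36218884, overlaps the starts of several predicted transcripts. It held 310 and 285 in UT, and after LPS 41 and 46 at 30 min, 45 and 33 at 1 h, 30 and 24 at 2 h and 67 and 38 at 4 h. IL-4 gave 534 and 539, then 646 and 568, 597 and 642, and 630 and 633. Every LPS library was below UT and every IL-4 library above it. The log2 difference from UT was -3.25 ± 0.26 (SE, n = 2 against 2) at 2 h of LPS and 1.07 ± 0.10 at 4 h of IL-4, with limma adjusted p over all times of 1.05e-12 and 3.91e-14.

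At the start of the curated Ptgs1 transcript, chr2:36229666-36231938, the same pattern was seen. UT libraries held 161 and 141, LPS libraries between 9 and 37, and IL-4 libraries between 186 and 349. This row fell by 3.19 on the log2 scale at 1 h of LPS and rose by 1.13 at 4 h of IL-4. Rows further into the gene had lower values, and the intronic row at chr2:36237685-36239346 had the largest IL-4 difference of the gene, 1.41 ± 0.29 at 4 h with values of 20 and 11 in UT and 42 and 55 at 4 h.

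Ptgs2, the gene of COX-2, showed the reverse of Ptgs1 after LPS. Its start row, chr1:150099135-150100864, also holds the start of the noncoding gene Ptgs2os. Values were 42 and 46 in UT, 155 and 171 at 30 min of LPS, 172 and 168 at 1 h, 195 and 214 at 2 h and 295 and 300 at 4 h. The log2 difference from UT was 1.78 ± 0.17 at 30 min, 2.10 ± 0.17 at 2 h and 2.63 ± 0.17 at 4 h (adjusted p = 1.32e-14 in limma over all times). With IL-4 the row stayed at 30 to 61 and overlapped UT, at -0.32 ± 0.26 at 4 h (adjusted p = 0.214 by limma). Another row, 8.6 kb downstream of the start, chr1:150107484-150109811, went from 2 and 1 in UT to 46 and 30 at 4 h of LPS, a log2 difference of 2.70 ± 0.37.

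**Figure D2:**
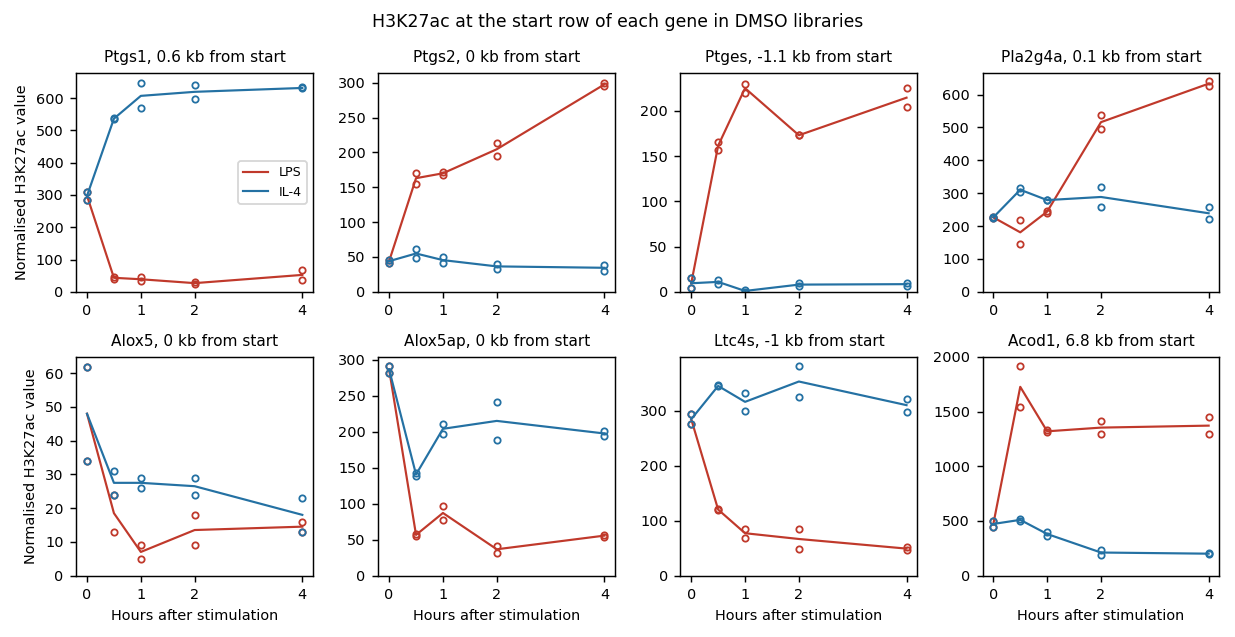
Normalised H3K27ac values (y axis, linear from 0) at the start row of each gene against hours after stimulation in DMSO libraries, in red for LPS and blue for IL-4. Circles are single libraries, 2 per time, lines join their means, and the Ptges panel shows the row nearest to a start because none covers one. Ptgs2, Ptges, Pla2g4a and Acod1 end above UT after LPS, while Ptgs1, Alox5, Alox5ap and Ltc4s end below it.

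Ptges, the gene of the inducible prostaglandin E synthase, had the largest LPS differences of the 8 genes. No row covered a Ptges start. The nearest row, chr2:30931283-30932913, lay 1.1 kb upstream of a predicted start and held 15 and 4 in UT, 157 and 166 at 30 min of LPS, 230 and 220 at 1 h, 173 and 173 at 2 h and 225 and 204 at 4 h. IL-4 libraries held 0 to 13 there. A row 10.0 kb upstream of the curated start, chr2:30912354-30914260, in an intron of the longer predicted transcript, held 11 and 1 in UT and rose to 203 and 228 at 30 min, 359 and 494 at 1 h, 583 and 586 at 2 h and 701 and 662 at 4 h. That was a log2 difference of 4.49 ± 0.24 at 30 min and 6.13 ± 0.24 at 4 h, with an adjusted p of 6.76e-22 in limma. This row and the nearest one passed the filter on low values only through LPS libraries, so only a rise could be called there. The row with the highest values, 2.4 kb inside the predicted start, was already at 330 and 331 in UT and reached 1806 and 1732 at 4 h.

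The 3 Ptges rows furthest upstream differed from one another. The row 11.8 kb upstream held 79 and 72 at 30 min against 73 and 94 in UT and was highest at 2 h (333 and 364). The row 21.9 kb upstream, which covers the start of Tor1b, was not called after LPS (largest log2 difference 0.10, adjusted p = 0.99 in limma). Beyond it, the row 24 kb upstream rose from 33 and 26 in UT to 94 and 79 at 4 h (1.41 ± 0.26).

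Pla2g4a, the gene of the phospholipase that supplies arachidonic acid, rose late at its start row, and the timing differed between its rows. The start row, chr1:149960429-149962036, held 224 and 229 in UT, 145 and 217 at 30 min, 247 and 241 at 1 h, 538 and 494 at 2 h and 640 and 626 at 4 h. Both libraries lay below UT at 30 min and above it from 1 h on, with log2 differences of -0.34 ± 0.15, 0.11 ± 0.15, 1.17 ± 0.15 and 1.46 ± 0.15. The row just upstream, chr1:149962205-149963885, showed the same order over a wider range, from 37 and 26 in UT through 112 and 88 at 1 h to 421 and 318 at 4 h (3.36 ± 0.23). In 6 of the 7 Pla2g4a rows that rose the 4 h difference exceeded 1.4, and the remaining one was 1.25. After IL-4, 2 intronic rows with the largest differences at 30 min, 0.98 and 0.92, missed the threshold of 1.

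Leukotriene genes lost H3K27ac after LPS. At the Alox5 start, chr6:116460375-116461905, values were low and the UT pair was wide, 62 and 34, and LPS libraries held 13 and 24 at 30 min, 5 and 9 at 1 h, 18 and 9 at 2 h and 16 and 13 at 4 h. No LPS library reached the lower UT library. The largest log2 difference was -2.11 ± 0.39 at 1 h (adjusted p = 0.000222 in limma), and without the first UT library it was -1.72 and the call was lost. At 2 intronic rows the UT pairs were closer together. The row at chr6:116458208-116459778 held 93 and 85 in UT, 7 to 26 after LPS and 19 to 47 after IL-4, with log2 differences of -2.72 ± 0.34 at 1 h of LPS and -1.42 ± 0.29 at 4 h of IL-4. At chr6:116455136-116456869 IL-4 lowered the value step by step, from 95 and 105 in UT to 70 and 71, 36 and 69, 29 and 38 and then 25 and 27, which was -1.76 ± 0.26 at 4 h. Both of these intronic rows were thus called lower after each stimulus, while the start row, at -1.19 ± 0.31 at 4 h of IL-4, was not called (adjusted p = 0.0223 in limma).

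Alox5ap, the gene of FLAP, fell at its start and across its introns after LPS. The start row, chr5:149264219-149265838, held 291 and 282 in UT, 58 and 55 at 30 min of LPS, 77 and 97 at 1 h, 41 and 32 at 2 h and 57 and 54 at 4 h. All 6 called Alox5ap rows had their largest difference at 2 h, from -1.87 to -2.82. IL-4 gave a smaller, early loss at the start, to 138 and 143 at 30 min (-1.0 ± 0.14), and values of 189 to 241 from 1 h on. That call sat at the threshold, since it was lost with a pseudocount of 20 (-0.93). The row 23.1 kb upstream, chr5:149240350-149243460, fell after IL-4 at 2 h (-1.26 ± 0.25) and, at -0.92 ± 0.25 after LPS, was not called there.

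Ltc4s, whose product makes leukotriene C4, fell after LPS at and near its start. The start row, chr11:50237728-50241306, held 293 and 276 in UT, then 119 and 121, 69 and 85, 49 and 84, and 52 and 46 from 30 min to 4 h of LPS, a log2 difference of -2.42 ± 0.22 at 4 h. With IL-4 it held 298 to 381, all above both UT libraries, at differences of 0.12 to 0.30 that were not called (adjusted p = 0.11 in limma). The row 5.5 kb upstream fell by 2.28 at 2 h. Of the other called rows, that 12.6 kb downstream covers the start of Mgat4b and fell by 1.04 at 4 h, and that 9.1 kb downstream fell by 1.07. Macrophage markers moved with these losses: after LPS the start rows of Itgam, Cd68, Csf1r and Lyz2 were called lower, by 2.21, 1.64, 1.52 and 2.29 at their largest, and those of Spi1 and Adgre1 were not called, and their part in the losses was not tested. In such bulk libraries, less of the mark per cell and fewer cells that carry it cannot be told apart.

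Acod1 had gained the mark by the first time after LPS, and at 2 upstream rows it also did so after IL-4. Its start row, chr14:103046015-103061540, spans 15526 bases and covers the whole gene. Values there were 499 and 445 in UT, 1539 and 1914 at 30 min of LPS, 1330 and 1309 at 1 h, 1296 and 1411 at 2 h and 1449 and 1294 at 4 h. The difference was largest at 30 min, 1.85 ± 0.10, and 1.53 ± 0.10 at 4 h. With IL-4 the same row held 502 and 517 at 30 min, 363 and 397 at 1 h, 191 and 230 at 2 h and 202 and 198 at 4 h, a loss of -1.22 ± 0.11 at 4 h (adjusted p = 1.95e-16 in limma).

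Upstream of Acod1 the rows did not move as one. The row 4.0 kb upstream, chr14:103042175-103043803, held 15 and 7 in UT and rose at 30 min to 145 and 129 with LPS and to 101 and 127 with IL-4. At that time the 2 stimuli differed by 0.26 ± 0.22 (adjusted p = 0.34 in limma). By 4 h LPS libraries still held 168 and 148 and IL-4 libraries 29 and 29, a difference of 2.26 ± 0.22. The row 21.2 kb upstream, chr14:103025009-103026608, rose from 12 and 10 to 246 and 263 at 2 h of LPS (4.02 ± 0.21) and to 61 and 47 at 30 min of IL-4 (1.88 ± 0.28), and it stayed above UT at 4 h of IL-4 with 32 and 43. Between these 2, the rows 13.1 and 10.2 kb upstream rose after LPS, by 1.69 and 2.34 at 2 h, and fell after IL-4, by 1.27 and 1.77 at 4 h.

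**Figure D3:**
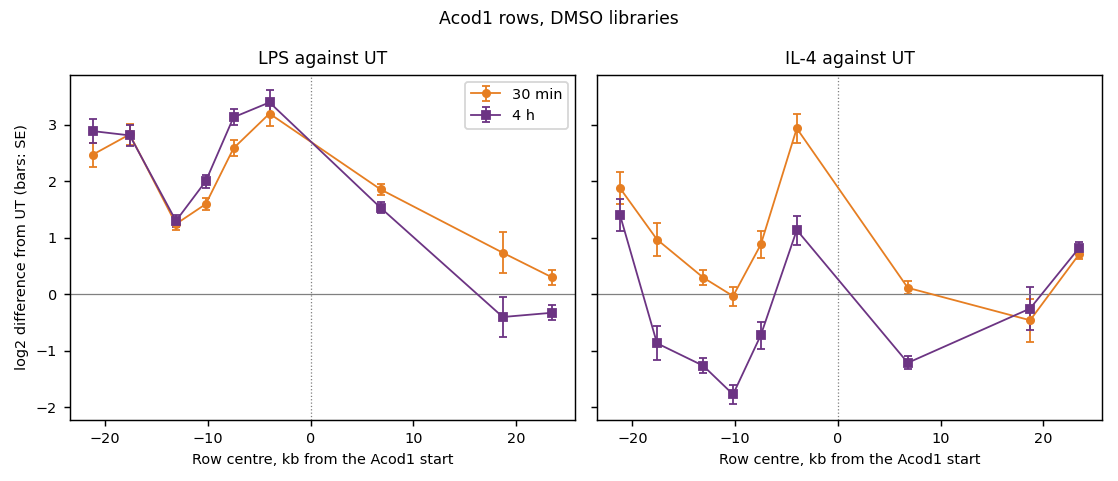
Log2 difference from UT (y axis, bars are SE) of the 9 Acod1 rows against the distance of the row centre from the Acod1 start in kb, for LPS on the left and IL-4 on the right in DMSO libraries. Orange circles are 30 min and purple squares 4 h, and the lines only join neighbouring rows. After LPS both times lie well above 0 at the 7 called rows, whereas after IL-4 the 4 h points lie below the 30 min points at all 7 rows from 21.2 kb upstream to the start row.

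Plotted by distance, the IL-4 difference at 30 min peaked at the row 4.0 kb upstream, at 2.93 ± 0.26, and was 0.11 ± 0.11 at the start row.

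LPS and IL-4 libraries of the same time were then compared directly, with the spread taken from all 18 DMSO libraries. All 53 rows passed the filter and 25 were higher and 22 lower with LPS, where 29.2% and 29.2% of the 50587 rows tested in the whole table were called in each direction. The Ptges and Ptgs2 rows with UT means under 10 passed the filter here too only through LPS libraries. All 7 Ptgs1 rows were lower with LPS, from -2.32 to -4.29 at their largest. The Ptgs1 rows that failed the filter after LPS passed it here only through IL-4 libraries. At those rows only a lower value with LPS could be called. Higher with LPS were both Ptgs2 rows, 9 of 10 Ptges rows, 7 of 8 Pla2g4a rows and 7 of 9 Acod1 rows. The Alox5 row 2.2 kb inside the gene was at -1.59 ± 0.34 at 30 min and at -0.22 ± 0.34 at 4 h (adjusted p = 0.59 in limma), while the row 21.5 kb inside was still at -1.26 ± 0.36 at 4 h. The Ltc4s start row was lower by 2.55 ± 0.18 at 4 h.

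Other genes of these pathways were read at the rows over their starts, by the rule used for the members. Of 22 further eicosanoid enzymes and transporters 13 had such a row and 12 were tested, of which 1 rose and 5 fell after LPS and 1 rose and 1 fell after IL-4. The shares over all rows, for this list and those that follow, were 29% higher and 24.6% lower after LPS and 13.6% and 11.1% after IL-4. Pla2g6, a calcium-independent phospholipase, rose by 1.22 ± 0.15 at 30 min of LPS. Tbxas1, thromboxane synthase, fell by 2.01 ± 0.19, Hpgds, the haematopoietic prostaglandin D synthase, by 1.64 ± 0.16, and Pla2g15, a lysosomal phospholipase, by 2.01 ± 0.13, all at 1 h of LPS. Pla2g5, a secreted phospholipase, fell by 2.22 ± 0.25 at 2 h of LPS and rose by 2.01 ± 0.11 at 2 h of IL-4, and Dagla, a diacylglycerol lipase, fell after both.

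Of 13 receptors, 6 had a row at a start, with 3 higher and 2 lower after LPS and 1 higher and 1 lower after IL-4. Fpr2, the receptor of lipoxin and formyl peptides, had the largest LPS difference among them, from a mean of 31.5 in UT to 889 at 4 h (4.62 ± 0.16), and fell after IL-4. Ptgir, the prostacyclin receptor, rose after LPS (1.11 ± 0.16) and after IL-4 (1.12 ± 0.14). Cysltr1 and Ptger2, receptors of cysteinyl leukotrienes and of prostaglandin E2, fell after LPS by 1.77 ± 0.22 at 30 min and by 1.02 ± 0.14 at 4 h. Among 8 genes of the tricarboxylic acid cycle and itaconate breakdown, none rose and 3 fell after LPS, namely Idh2 (-2.18 ± 0.24), Clybl (-1.30 ± 0.24) and Idh1 (-1.28 ± 0.15), and none was called after IL-4. In that list 4 of 8 IL-4 tests had an adjusted p under 0.01 with differences under 1.

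By likeness of start rows over the 9 DMSO group means, Acod1 was closest to LOC115487266, Gm14051 and Cxcl2 (r of 0.990, 0.989 and 0.989) among 14541 genes. Ptgs2 was closest to Pced1b, Cxcl10 and Olfr433 (r of 0.992, 0.990 and 0.989) and Alox5 to Krt80, Kifc5b and Gm34983 (r of 0.950, 0.946 and 0.939). These r describe 9 points that share libraries.

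The same time effects were sought in the 546 CKI libraries, each CKI with its own level. A fit of 314 libraries called 23 rows higher and 16 lower after LPS, where 15.4% and 13.5% of 59163 rows were called. For all 44 rows called in DMSO the largest CKI-library difference had the DMSO sign, and 38 of the 44 were also called, but sizes were smaller. The Ptgs2 start row rose by 1.83 at 4 h where DMSO gave 2.63, the Ptges row 10.0 kb upstream by 3.86 against 6.13, and the Ptgs1 start row was at -2.30 at 2 h where DMSO gave -3.25. After IL-4, with 305 libraries, 4 rows were higher and 3 lower, where 5.33% and 3.5% of 59150 rows were called. Those were 3 Ptgs1 rows and the Acod1 row 4.0 kb upstream, and 1 Alox5 row and the Acod1 rows 13.1 and 10.2 kb upstream. The 4.0 kb row again rose early, by 1.68 at 30 min, and was at 0.49 at 4 h.

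Each CKI was also set against its own UT libraries at 4 h of LPS, for 55 CKIs. The mean over the rows called in DMSO was above 0 for all 55 CKIs at Ptgs2, Ptges and Acod1, and below 0 for all 55 at Alox5ap and Ltc4s. For Ptges it ran from 1.25 (Afatinib) through a median of 2.29 to 2.98 (Vandetanib), with 3.46 in DMSO. At Ptgs2 it ran from 0.42 (Afatinib) through 1.58 to 2.38 (Poziotinib), with 2.67 in DMSO. One of the Ptgs2 rows, 8.6 kb downstream, had low values in UT. The Afatinib UT library was the highest of the 73 CKI UT libraries there, at 95 where the median was 15. The ranges at Ptges and Ptgs2 are over single libraries for most CKIs, with the spread between paired CKI libraries given above. The rows averaged were chosen by their calls in the same DMSO libraries, which favours a larger difference in DMSO. CKI libraries also had a narrower range of values than DMSO libraries. The part of either in the smaller CKI responses was not tested.

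At Acod1 the 3 lowest of 55 responses were those of 3 CKIs aimed at p38 kinases, Talmapimod (0.55), PH797804 (0.85) and Losmapimod (0.90), where the median was 1.57, the highest 2.12 (SGX523) and DMSO 2.43. VX702, the fourth p38 inhibitor, was at 1.34. In the libraries themselves the Acod1 start row went from 1023 in UT to 1106 at 4 h with Talmapimod, from 611 to 725 with PH797804, from 870 and 694 to 923 with Losmapimod and from 501 to 1533 with VX702. The UT library of Talmapimod was the highest of the 73 CKI UT libraries at this row. Library contrast differed between these libraries. The ratio of high to low rows was 7.02 in the UT and 20.4 in the 4 h LPS library of Talmapimod, 14.7 and 3.37 in those of PH797804 and 28.6 and 44.6 in those of VX702. For Losmapimod it was 9.46 and 18.8 in UT and 4.37 at 4 h of LPS, where the median of all CKI libraries was 17.6, and its part in the responses was not tested. The p38 CKIs were tested against the others on responses from their own UT, over all times and with runs of CKIs as a covariate. The difference was -0.50 ± 0.12 at the Acod1 start row (adjusted p = 0.0534 in limma). At the row 4.0 kb upstream it was -0.98 ± 0.27 (adjusted p = 0.0782 in limma). No member row was called, where 101 rows were called in the whole table.

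For Ptgs1 the mean over 4 rows at 4 h of LPS ran from -3.06 (Filgotinib) to 0.09 (Lenvatinib), with PH797804 at -0.19 and Losmapimod at -0.20, a median of -1.86 and -2.48 in DMSO. The Lenvatinib library of 4 h LPS also had a low contrast, 4.29. Pla2g4a responses were lowest with Lenvatinib (-0.19), Losmapimod (0.53) and Talmapimod (0.60), around a median of 1.5, and were above 0 for 54 of 55 CKIs. For Alox5, 53 of 55 were below 0, the 2 exceptions being PH797804 (0.93) and Pacritinib (0.97).

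After 4 h of IL-4 the mean over 6 Ptgs1 rows was above 0 for all 55 CKIs, from 0.34 (Filgotinib) to 1.74 (PF04691502), with 0.96 as the median and 1.25 in DMSO. The 3 Acod1 rows that fell in DMSO were below 0 for all 55, from -1.88 (IMD0354) to -0.10 (Momelotinib). The 2 Acod1 rows that rose in DMSO were more variable, from -0.44 (PF04691502) to 2.34 (Mubritinib), with 46 of 55 above 0.

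**Figure D4:**
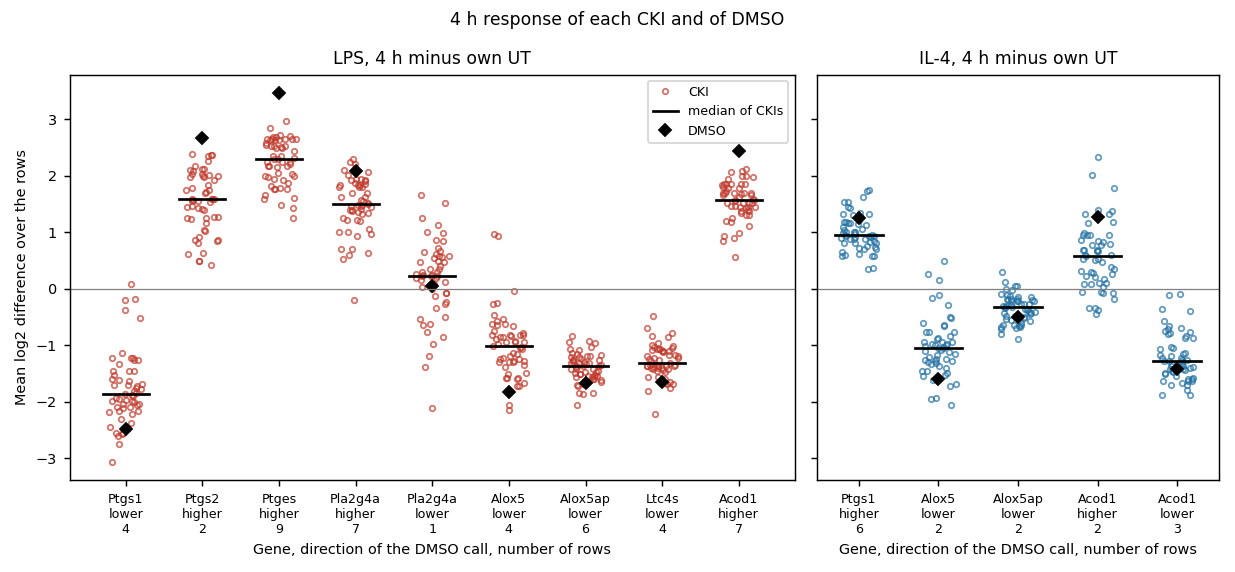
Mean log2 difference between 4 h and the own UT libraries (y axis) over the rows of each gene that were called in DMSO, for LPS on the left and IL-4 on the right. Each circle is 1 of 55 CKIs, the bar is their median and the diamond is DMSO, and the labels give the gene, the direction of the DMSO call and the number of rows. DMSO lies further from 0 than every CKI at Ptgs2, Ptges and Acod1 after LPS, at rows that were chosen by their calls in these DMSO libraries. CKI libraries had a narrower range of values, and its part was not tested.

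CKIs were finally compared with DMSO over all times of a stimulus, as 3074 pairs of a member row and a CKI for each stimulus. Calls needed a difference over 0.5 with an adjusted p under 0.05. With LPS 7.19% of the pairs were lower and 22.2% higher, where 4.04% and 32.3% of all pairs were called. With IL-4 5.30% were lower and 27.5% higher, where the background was 3.03% and 36.2%. The narrower range of CKI libraries moved with these calls, and its part was not tested. After quantile normalization 88 pairs were lower and 53 higher with LPS, in place of 221 and 683. Against the mean of the 58 CKIs, with LPS 1.82% were lower and 1.24% higher (1.7% and 1.11% of all pairs), and with IL-4 1.92% lower and 46 pairs higher (1.5% and 2.44% of all pairs).

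Pla2g4a had the largest share of lower pairs with both stimuli, 118 and 117 of 464. At its start row with LPS, Omipalisib (-1.44 ± 0.20), AZD8186 and Apatinib were lowest and GSK461364, Selumetinib and GSK2110183 highest, none of the last 3 above DMSO. With IL-4 BMS911543 (-1.63 ± 0.15), X396 and Vatalanib were lowest there. These differences include UT, and a BMS911543 UT library, at 77, was already the lowest of the 73 CKI UT libraries at this row (median 188). All 6 of these lowest CKIs belonged to 1 run of 10 CKIs that stand next to each other in the column order of the table, whose median estimated depth was 906680 reads, the lowest of 6 runs, and its part was not tested. The 3 highest with LPS belonged to another run of 10 CKIs, whose median estimated depth, 4340290 reads, was the highest of the 6. The part of that run was not tested either. At the Ptgs2 start row with LPS, PH797804 (-0.80 ± 0.21), Vatalanib and Afatinib were lowest, and at the Acod1 start row PH797804 (-0.66 ± 0.13), Afatinib and Vatalanib. Vatalanib and Afatinib, but not PH797804, belong to the run of lowest depth, and its part was not tested. Talmapimod was the highest CKI at both rows, at 0.01 ± 0.21 and 0.08 ± 0.13 over all times, UT included. The PH797804 value at Acod1 turned to 0.10 after quantile normalization. Over UT and the IL-4 times, the Ptgs1 start row was lower with Omipalisib by 0.83 ± 0.11 relative to DMSO and by 0.74 relative to the mean of the CKIs. The Omipalisib UT library, at 173, was already the lowest of the 73 CKI UT libraries at this row. Omipalisib belongs to the run of lowest depth named above.

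Families of CKIs, grouped by the target each CKI is designated for, as MEK or ERK (5), p38 (4), JAK (6) and PI3K or mTOR (7), were tested against the other CKIs at an adjusted p under 0.05. With LPS the p38 family had 2 called member rows, where 10.6% of 59163 rows were called, at 21.5 kb of Alox5 (0.66 ± 0.20) and at 21.2 kb upstream of Acod1 (0.34 ± 0.11). The count was 13 without Talmapimod, 5 without Losmapimod and 0 without PH797804. Neither row was called on responses from the own UT libraries, where they were at -0.01 ± 0.35 and -0.83 ± 0.28. PI3K or mTOR inhibitors had no called member row with LPS (0.955% of all rows) and 1 with IL-4 (2.16%), the curated Ptgs1 start row at -0.27 ± 0.07, and that call was absent without Omipalisib or without BGT226. In limma no member row was called for MEK or ERK, where 0% of all rows were called with either stimulus, for p38 with IL-4 (0% of all rows) or for JAK (0% with LPS, 0.00338% with IL-4). With LPS, unadjusted p was under 0.05 at 9 of the 53 member rows for MEK or ERK (19.8% of all rows), 14 for p38 (33.4%), 3 for JAK (2.27%) and 10 for PI3K or mTOR (12.4%). With IL-4 it was under 0.05 at 13 for MEK or ERK (4.74% of all rows), 1 for p38 (13.3%), 5 for JAK (3.68%) and 12 for PI3K or mTOR (16.9%).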

How the data were processed

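H3K27ac ChIP-seq (antibody ab4729 of Abcam) was done on BMDM. By the study's methods, the authors removed adapters, trimmed reads to 51 bases, mapped them to mm10 with ShortStack, counted reads around ATAC-seq peak summits and scaled the libraries on peaks that did not vary. Bowtie and SAMtools are named in the submitters' processing notes. The deposited table holds 1 score for each row and library, a normalised read count rounded to a whole number, so no count model was used. All 564 columns were used.

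Rows were annotated with RefSeq starts of GRCm38.p6. Scores were analysed as log2(score + 5) with limma 3.58.1 (trend) in R 4.3.3 on rows with a mean of at least 10, and p-values were adjusted by Benjamini-Hochberg over all rows tested. Time courses used the 10 DMSO libraries of a stimulus with UT, and CKI fits used time and compound as factors. Families were fitted on CKI coefficients with the 6 runs of columns as a covariate. The runs come from the column order and are not stated batches. Alternatives were other pseudocounts, filters, thresholds and windows, quantile normalization, another reference and left-out libraries. On simulated data, 200 of 200 rows changed by 2 on the log2 scale were recovered in an LPS time course of 50783 rows. Low rows were not among those changed, every row had the same spread, and smaller changes were not simulated for this fit. Recovery of low rows and of changes near the threshold is thus not known.

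Depth was estimated from the step between low scores and is unknown for DMSO UT. Each start row is the one with the highest mean over a start. For each gene the text names its start row, the called row with the largest difference after each stimulus and the CKIs at the extremes of these rows, and other rows were named after their values were seen. The members and the gene lists were chosen with earlier results of these data known. The result for 1 row and 1 motif is not reported here.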

Additional observations from a re-analysis of the deposited data

Results flagged for a closer look

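Of the 11 rows called after both LPS and IL-4 in DMSO, 6 were called in opposite directions. The share of opposite calls among all rows of the table called after both was not computed, so 6 of 11 has no background here. The direct test of LPS minus IL-4 in limma was past the threshold for each of the 6. Their choice by opposite calls in the same libraries favours that outcome, so these differences describe the rows and add no further support. Near Ptgs1 the difference was -4.29 at 2 h for the start row, -4.25 at 2 h for the row at the curated start and -3.83 at 4 h for the row 9.8 kb downstream. Near Acod1 it was 2.56 at 4 h for the row 13.1 kb upstream, 3.77 at 4 h for the row 10.2 kb upstream and 2.75 at 4 h for the start row. In each of the 6 rows all 8 LPS libraries lay on one side of both UT libraries, and both IL-4 libraries of 4 h lay on the other. The choice of the rows favours this too.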

How the results depend on the processing

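Over all alternatives, 1024 values of single rows or CKIs kept their direction and side of the threshold, 44 lost the call, 7 gained it and 5 reversed, and 207 counts stayed within 1.5 times the value reported while 31 did not. Only 31 of the 53 rows lay within 10 kb of a start. Among these, 14 rows were higher after LPS, 4 lower after IL-4 and 14 higher with LPS than with IL-4. For IL-4, 5 rows were higher with a pseudocount of 20 and 13 with a threshold of 0.5. Leaving out 1 DMSO library gave 25 to 26 rows higher and 16 to 20 lower after LPS, 6 to 10 and 6 to 9 after IL-4, and 24 to 26 and 21 to 23 for LPS against IL-4.

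With the replicate number as a block, 25 rows were higher and 19 lower after LPS and 8 and 7 after IL-4, and no call changed. Deviations of libraries with the same number had r of -0.07 to 0.05 between groups, so the numbers only name the samples.

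For CKIs against DMSO with LPS, quantile normalization gave 53 higher and 88 lower pairs, the mean of the CKIs as the reference 38 and 56, and leaving out 1 DMSO replicate 443 to 556 and 172 to 195. With IL-4 these were 83 higher with quantile normalization, 46 and 59 with the mean of the CKIs, and 670 to 706 and 140 to 147. After quantile normalization PH797804 at the Acod1 start with LPS became 0.10 and Neratinib at the Ptgs2 start with IL-4 -0.23. For p38 with LPS, 0 rows were called without the run term, 0 on responses from own UT libraries, 1 with quantile normalization and 0 to 13 without 1 CKI. For PI3K or mTOR with LPS, 2 were called without the run term, 2 with quantile normalization and 0 to 2 without 1 CKI, and with IL-4 0, 0 and 0 to 3 on own UT responses, with quantile normalization and without 1 CKI. On own UT responses, p38 at Alox5 21.5 kb was -0.012, p38 at Acod1 21.2 kb upstream -0.83 and PI3K or mTOR at the curated Ptgs1 start 0.13. The causes were not tested. Without the 101 CKI libraries under 1000000 estimated reads or with no estimate, an alternative chosen after seeing the data, no count of CKI time effects or of CKIs against DMSO moved by over 1.5 times. Low rows near Alox5 and Ptgs1 rest on few reads, and most CKI values on 1 library.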
